A study of Solanum lycopersicum with 3 samples.

Results

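The peaks described here are the putative HSFA1a binding sites in the middle of each tomato chromosome, defined as those whose summit lay between 40% and 60% of the chromosome extent. The extent was the largest peak end on that chromosome in either list. Of the peaks on the 12 numbered chromosomes, 5168 of 24164 in replicate 1 and 3043 of 14606 in replicate 2 met this rule, which is 21.4% and 20.8% of them. The complete lists, with peaks on all other sequences included, held 24176 and 14932 peaks. Each list is longer than the set of putative binding sites that the paper reports, so a peak here is not an established site. The middles spanned 160 Mb in all, from 10.4 Mb on chromosome 6 to 18.6 Mb on chromosome 1, and the rest of the chromosomes spanned 641 Mb.

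Binding was measured by AmpDAP-seq, in which a tagged protein made in wheat germ extract and held on beads pulls down fragments of naked, amplified genomic DNA. The DNA came from leaves of 4-week-old Solanum lycopersicum plants, cultivar M82, kept at 24 °C with 16 h of light, and the eluted DNA was amplified for 20 PCR cycles and read as single 75 bp reads. The HSFA1a-Halo-tag group had 2 libraries, labelled as biological replicates, and the Halo-tag group had 1 sample, which was not analysed here. Heat was not part of the labels of these samples, and the protein met the DNA outside the cell, so all values describe binding to DNA without chromatin.

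HSFA1a is a heat shock transcription factor and a main regulator of the heat response in tomato. Factors of this family bind as trimers to heat shock elements, which are runs of short GAA blocks in alternating orientation. Tomato chromosomes carry most of their genes towards both ends and a long, repeat-rich, gene-poor stretch of heterochromatin around the centromere. The middle by length is not the centromere, whose positions were not analysed here. In the cell such stretches are closely packed, but the assay presents them as bare fragments like any other.

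Peaks were found throughout the middles, at a density similar to the rest of the chromosomes. Densities are per Mb of extent, without correction for assembly gaps or alignable length. Replicate 1 had 32.2 peaks per Mb in the middles, with an exact Poisson 95% interval from 31.4 to 33.1, and 29.6 in the rest, from 29.2 to 30.05. Replicate 2 had 18.98 peaks per Mb in the middles, from 18.3 to 19.7, and 18.0 in the rest, from 17.7 to 18.4. The ratio of middle to rest was thus 1.09 and 1.05 in the respective libraries (mean log2 ratio 0.10 ± 0.03, SD, n = 2). The intervals were apart in replicate 1 and overlapped in replicate 2. They cover counting error only and are too narrow for these data, because the peaks were spread more unevenly than counting alone gives: across 1 Mb bins of the middles the variance was 2.21 times the mean in replicate 1 and 1.73 times in replicate 2. With 2 libraries of 1 group no test between conditions was possible, and none is given.

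The small surplus depended on which other part the middles were set against. Against the flanks, taken as 20% to 40% and 60% to 80% of the extent, the density ratio was 1.02 in replicate 1 and 0.997 in replicate 2. Against the outer 20% at each end it was 1.17 and 1.11. The flanks held 31.7 and 19.04 peaks per Mb and the ends 27.6 and 17.0, so that middles and flanks had like densities in both libraries and the ends had the lower one.

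**Figure D1:**
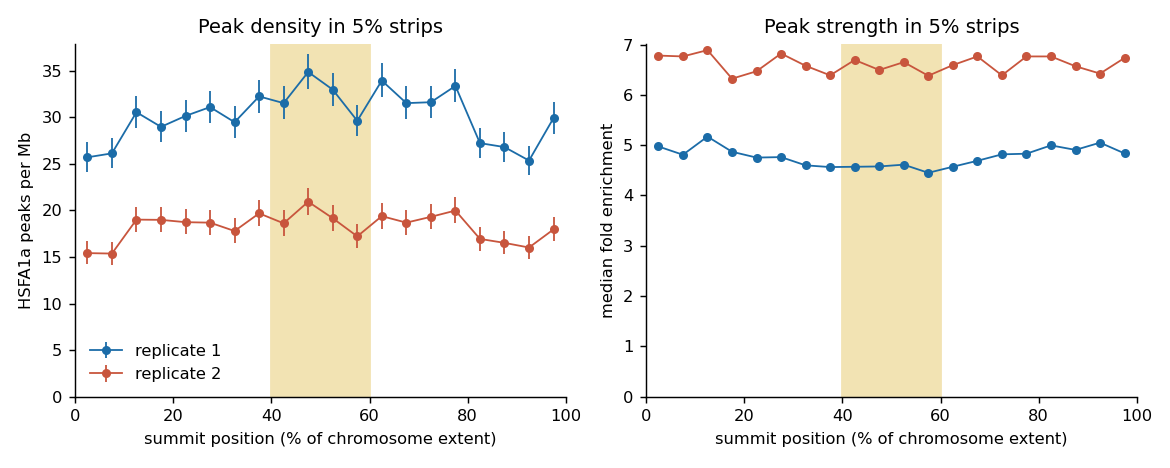
Peaks per Mb (left, with exact Poisson 95% intervals) and median fold enrichment (right) in strips of 5% of the chromosome extent, summed over the 12 chromosomes, for replicate 1 (blue) and replicate 2 (red), with the middle shaded. The strip from 45% to 50% was the densest in both libraries, at 34.9 and 20.9 peaks per Mb, and the strip from 55% to 60% ranked 13 and 15 of 20.

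The middles were not uniform along their own length. The strip from 45% to 50% was the densest of all 20 strips in both libraries, with 34.9 peaks per Mb in replicate 1 (33.1 to 36.7) and 20.9 in replicate 2 (19.5 to 22.4). The strip from 55% to 60% had 29.6 and 17.2 peaks per Mb. At the 40% bound, the strip outside had 32.2 and 19.7 peaks per Mb and the strip inside 31.5 and 18.6. At the 60% bound, the strip inside had 29.6 and 17.2 and the strip outside 33.9 and 19.4. The intervals of these last strips were apart in replicate 1 (28.0 to 31.4 inside and 32.2 to 35.8 outside) and overlapped in replicate 2. They are too narrow for these data, as stated for the densities. The authors' peak caller gave each summit a fold enrichment, its pileup over the local background, whose median was 4.56 in replicate 1 and 6.39 in replicate 2 from 35% to 40%, and 4.57 and 6.69 from 40% to 45%. It was 4.45 and 6.38 from 55% to 60%, and 4.57 and 6.59 from 60% to 65%.

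Chromosome 2 stood lowest among the middles in both libraries. Its middle had 21.3 peaks per Mb in replicate 1 (18.7 to 24.2) against 30.7 in the rest of the chromosome. In replicate 2 it had 14.6 (12.4 to 17.1) against 18.7. The ratios were 0.694 and 0.783. The counting intervals of middle and rest were apart in both libraries, but narrowly in replicate 2, where that of the rest began at 17.4. These intervals are too narrow for these data, and chromosome 2 is named because it was the lowest of 12. Chromosome 2 is the tomato chromosome whose short arm carries the nucleolus organizer. Its few middle peaks were not weak, and their median fold enrichment was 5.28 against 4.79 in the rest for replicate 1 and 6.76 against 6.74 for replicate 2.

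Chromosome 10 had the densest middle in replicate 1, with 36.4 peaks per Mb, and chromosome 5 in replicate 2, with 21.2. The middle was denser than the rest on 10 of 12 chromosomes in replicate 1 and on 8 of 12 in replicate 2. The 8 of replicate 2 were among the 10 of replicate 1, namely chromosomes 1, 3, 4, 5, 6, 7, 10 and 11. Chromosomes 2 and 12 had the sparser middle in both libraries. On chromosome 12 the gap was small, with 29.0 peaks per Mb against 29.7 in replicate 1 and 17.3 against 17.7 in replicate 2. Chromosome 9 was higher in the middle in replicate 1 (35 against 33.3) and lower in replicate 2 (19.7 against 20.8). Chromosome 8 had 29.6 against 29.2 in replicate 1 and the same rounded density of 17.6 in both sections in replicate 2.

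The spread between chromosomes was larger than the mean surplus. The log2 ratio of middle to rest averaged 0.10 ± 0.23 (SD over 12 chromosomes, from -0.53 to 0.28) in replicate 1 and 0.06 ± 0.17 (from -0.35 to 0.26) in replicate 2. With chromosome 2 left out, the ratio over the other 11 chromosomes was 1.12 in replicate 1 and 1.07 in replicate 2.

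**Figure D2:**
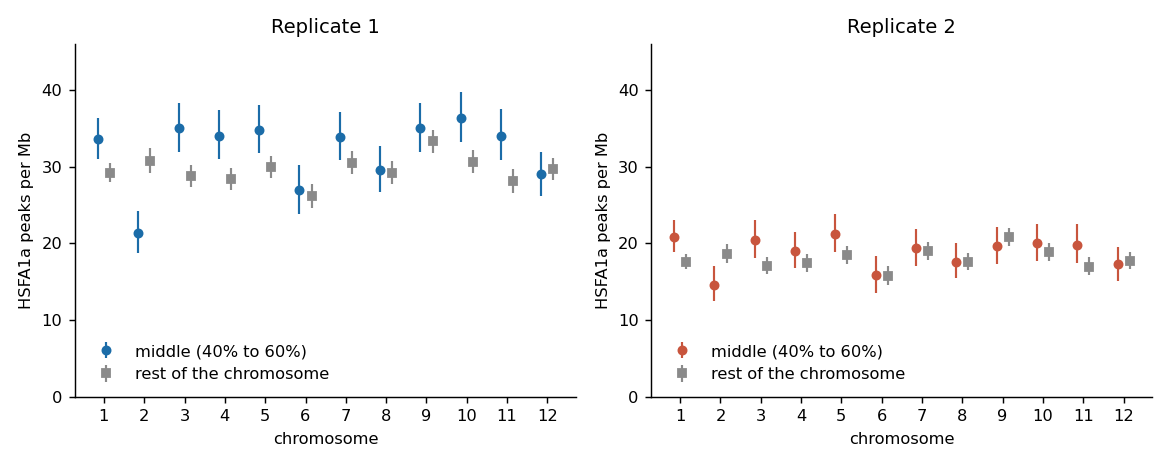
Peaks per Mb on each of the 12 chromosomes in the middle (coloured circles) and in the rest of the chromosome (grey squares), with exact Poisson 95% intervals, for replicate 1 (left) and replicate 2 (right). The middle of chromosome 2, at 21.3 and 14.6 peaks per Mb, is the lowest of the 12 in both libraries.

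Bins of the middles that were dense in one library were mostly dense in the other as well. The middles held 150 whole 1 Mb bins. Replicate 1 counts ran from 5 to 50 with a median of 33, and replicate 2 counts from 3 to 38 with a median of 19. Across these bins the counts of the 2 libraries had a Pearson correlation of 0.811 and a Spearman correlation of 0.810. This is given as a description, since paired bins share their DNA, their alignable length and a local background. No middle bin was without a peak, and 3 of 622 bins of the rest were empty in replicate 1 and 5 in replicate 2. Empty bins were too rare in the rest for their absence among 150 to set the middles apart. With 0.5 Mb bins, the emptiest middle bin had 0 peaks.

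The densest bin of the middles lay on chromosome 3, from 31000001 to 32000000, with 48 and 38 peaks in replicates 1 and 2 (mean 43.0 ± 7.07, SD, n = 2). Its peaks had median fold enrichments of 6.80 and 7.45, against 4.56 and 6.56 over all middle peaks, and 35 of them were found in both lists. Several sparser bins had higher medians in replicate 2, up to 10.3 on chromosome 3 from 29000001 to 30000000. The bin just before the densest one, from 30000001 to 31000000, ranked 3 with 45 and 30 peaks, so that the adjoining pair formed one dense stretch. The second bin lay on chromosome 12, from 33000001 to 34000000, with 45 and 33 peaks. The fourth was on chromosome 5 from 35000001 to 36000000, with 50 and 25 peaks, the highest count of replicate 1 and a moderate one of replicate 2. The fifth was on chromosome 10 from 36000001 to 37000000, with 46 and 28. In the rest of the chromosomes, 4 of 622 bins had a higher mean count than the densest middle bin.

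The 5 emptiest bins all lay on chromosomes 2 and 12. The lowest was on chromosome 12 from 39000001 to 40000000, with 5 and 3 peaks (mean 4.00 ± 1.41, SD, n = 2), of which 2 were in both lists. Its neighbour from 38000001 to 39000000 had 11 and 10. On chromosome 2, the bin from 23000001 to 24000000 had 12 and 5 peaks, the bin from 32000001 to 33000000 had 11 and 7, and the bin from 31000001 to 32000000 had 12 and 11. All these counts lay below the 10th percentile of the middle bins, which was 21.0 peaks in replicate 1 and 11.9 in replicate 2.

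Both chromosomes also held well-filled bins. The 10 middle bins of chromosome 2 ranged from 11 to 43 peaks in replicate 1 and from 5 to 27 in replicate 2, and the fullest, from 25000001 to 26000000, ranked 8 of 150. Chromosome 12 held the second densest and the emptiest bin of the middles.

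**Figure D3:**
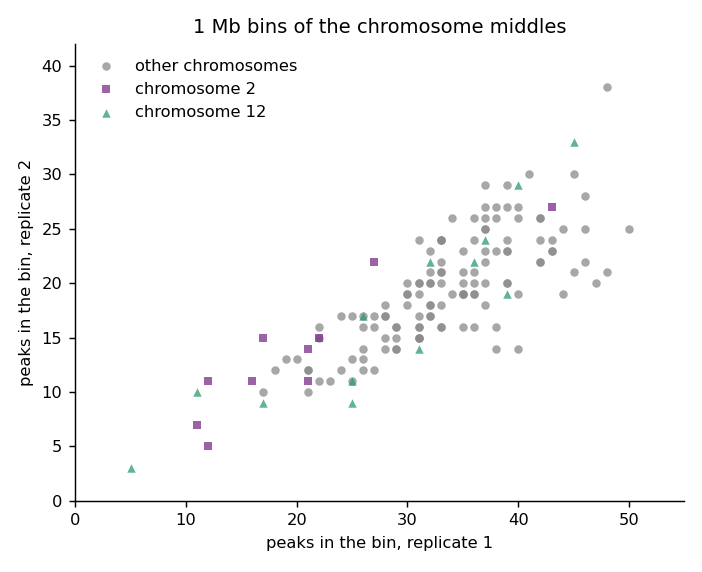
Number of peaks in each of the 150 whole 1 Mb bins of the chromosome middles in replicate 1 (horizontal axis) and replicate 2 (vertical axis), with bins of chromosome 2 as purple squares and of chromosome 12 as green triangles. The 5 bins with the lowest mean count belong to these chromosomes, and the densest bin (48 and 38 peaks) lies on chromosome 3.

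Stretches without a peak in either list fell partly in these emptiest bins. Assembly gaps and alignable length were not analysed here, so a lack of binding cannot be told apart from a lack of alignable sequence. The longest in the middles ran from 38378141 to 39290849 on chromosome 12, over 913 kb. The next were on chromosome 2, from 23336498 to 24228152 over 892 kb and from 31426413 to 31978624 over 552 kb. In all, 12 such stretches of the middles were longer than 250 kb, or 7.49 per 100 Mb, against 45 in the rest, or 7.02 per 100 Mb, where the longest measured 2054 kb.

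The strength of the peaks in the middles was at most slightly lower than in the rest of the chromosomes. The median fold enrichment in replicate 1 was 4.56 in the middles and 4.81 in the rest, and in replicate 2 it was 6.56 and 6.62. The log2 ratio of these medians was -0.08 and -0.01 (mean -0.05 ± 0.04, SD, n = 2), so the mean was about as large as the spread between libraries. The middles were lower on 10 of 12 chromosomes in replicate 1 and on 6 of 12 in replicate 2. They were lower in both libraries on chromosomes 1, 3, 4, 6, 8 and 9, and higher in both on chromosomes 2 and 5. The medians by chromosome ran from 4.28 on chromosome 8 to 5.28 on chromosome 2 in replicate 1, and from 6.13 on chromosome 6 to 7.0 on chromosome 10 in replicate 2. The flanks had medians of 4.69 and 6.60 in replicates 1 and 2, and the ends 4.93 and 6.67. The log2 ratio of middles to flanks was -0.04 and -0.01, and that of middles to ends -0.11 and -0.02.

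Strong peaks were about as frequent in the middles as over all chromosomes. A fold enrichment of at least 10 was reached by 594 middle peaks of replicate 1, or 11.5% (Wilson 95% interval 10.7 to 12.4), beside 12.2% of all its chromosome peaks. In replicate 2 it was reached by 569 middle peaks, or 18.7% (17.4 to 20.1), beside 18.8%. The shares in the rest were 12.4% and 18.8%. The highest fold enrichment of a middle peak was 23.1 in replicate 1 and 24.9 in replicate 2, against 27.3 and 31.2 in the rest.

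Pileup and local background were solved from the deposited values, and of their medians the pileup of replicate 1 differed between sections. The median pileup was 56.9 scaled reads in the middles and 60.8 in the rest of replicate 1, and 24.0 reads in both sections of replicate 2. The median background was 11 in both sections of replicate 1 and 2.63 in both sections of replicate 2. Fewer middle summits lay at the lowest background of their library, 8.72% against 13.5% in replicate 1 and 6.93% against 11.8% in replicate 2. The part of this in the fold enrichment was not tested.

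Peak width differed little. The median width was 213 bp in the middles and 217 bp in the rest of replicate 1, and 182 bp in both sections of replicate 2. By chromosome, the middle medians ran from 207 to 225 bp and from 176 to 189 bp. Middle peaks covered 0.719% of the length of the middles in replicate 1 and 0.359% in replicate 2, against 0.667% and 0.342% in the rest. The widest middle peak of replicate 1 lay on chromosome 2 from 31159032 to 31159745, at 714 bp, with a fold enrichment of 5.29, and its replicate 2 partner measured 134 bp. The widest of replicate 2 lay on chromosome 1 from 41842362 to 41842919, at 558 bp and a fold enrichment of 12.7, and was as wide in replicate 1, at 541 bp and 16.7.

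**Figure D4:**
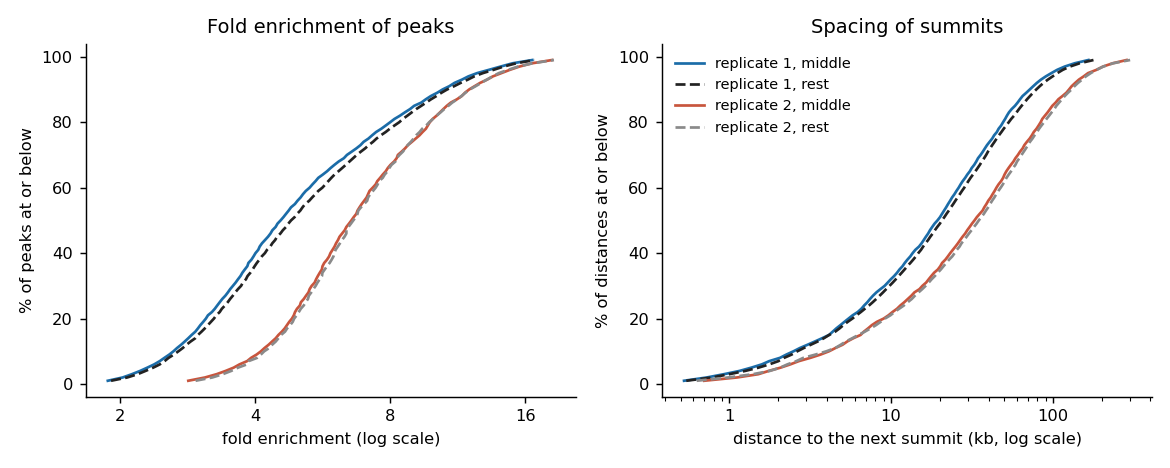
Cumulative percentage of peaks by fold enrichment (left, log scale) and of distances between neighbouring summits in kb (right, log scale), for the middles (solid lines) and the rest of the chromosomes (dashed lines) in replicates 1 and 2, from the 1st to the 99th percentile. For fold enrichment the curve of the middles lies slightly to the left in replicate 1 (medians of 4.56 against 4.81) and close to that of the rest in replicate 2 (6.56 against 6.62), and for distances it lies slightly to the left in both (19.3 against 20.6 kb and 32.8 against 34.8 kb).

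Most middle sites of the shorter list were found again in the longer one. Peaks of the 2 lists that had at least 1 bp in common were called shared. In replicate 1, 2786 middle peaks were shared, or 53.9% (Wilson 95% interval 52.5 to 55.3), beside 55.9% of all its chromosome peaks. In replicate 2, 2790 were shared, or 91.7% (90.7 to 92.6), beside 92.6%. The difference from the rest was -2.51 percentage points in replicate 1, with a Newcombe 95% interval from -4.04 to -0.98. In replicate 2 the difference was -1.15 points (-2.28 to -0.11). These intervals take each peak as an independent draw, cover counting error only and are not read as a test. Against the flanks the differences were smaller, at -1.25 and -0.25 points, and against the ends they were -3.95 and -2.16. With lists of equal length by −log10 q, the differences from the rest were 0.562 points in replicate 1, the opposite direction, and -2.69 in replicate 2. The middle share was the lower one on 10 of 12 chromosomes in replicate 1 and on 8 of 12 in replicate 2, and on 7 in both. Chromosome 5 was the only one of the 12 with the higher middle share in both libraries.

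Sharing was also compared at like peak strength. When each list was divided into 10 classes of equal size by −log10 q, the 3 weakest classes held 32.7% of the middle peaks of replicate 1 against 29.3% of the rest, and 32.2% against 29.4% in replicate 2. In replicate 1 the share rose from 6.03% in the weakest class of middle peaks to 100% in the strongest, and in replicate 2 from 57.0% to 100%. With the class shares of the rest applied to the strength makeup of the middles, 53.1% of replicate 1 peaks would be shared, 0.842 points below the measured share. For replicate 2 the figure was 92.3%, from which the measured share differed by -0.571 points, against -1.15 without regard to strength. Within classes the middles were lower in 3 and higher in 6 of 10 in replicate 1, and lower in 5 and higher in 3 in replicate 2, where the furthest class was the weakest, with 57.0% against 62.8%.

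**Figure D5:**
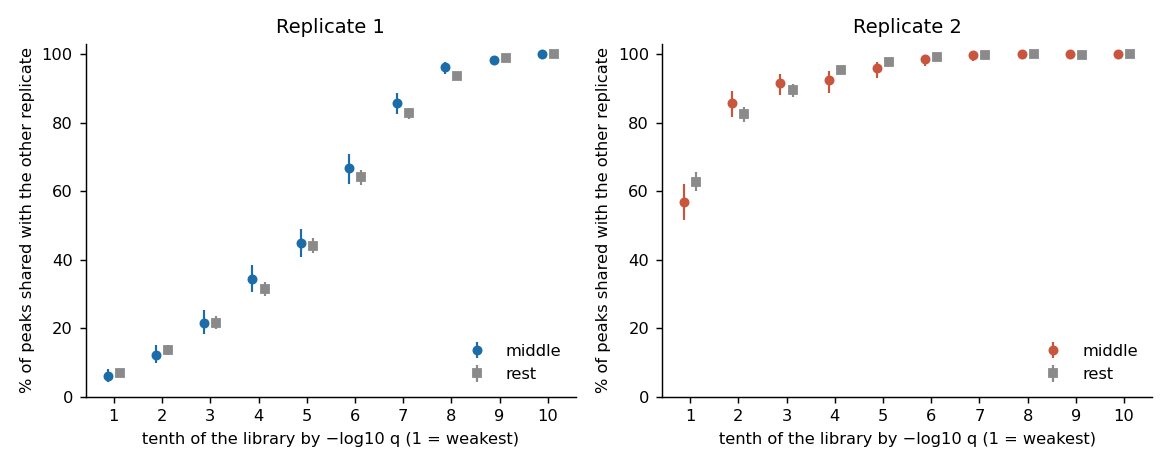
Percentage of peaks that overlap a peak of the other library, by classes of equal size in each list ordered by −log10 q from the weakest (class 1) to the strongest (class 10), for the middles (coloured circles) and the rest (grey squares) with Wilson 95% intervals. In replicate 1 the middle share climbs from 6.03% to 100%, where middle and rest differ by at most 3.04 points in any class, and in replicate 2 the furthest class is the weakest, with 57.0% against 62.8%.

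Expressed as density, the shared sites were slightly more frequent in the middles than in the rest, at 17.4 per Mb against 16.7 in either list, a ratio of 1.04. The unshared peaks carried a larger surplus, with 14.9 per Mb against 12.9 in replicate 1 (ratio 1.15) and 1.58 against 1.29 in replicate 2 (ratio 1.22). The flanks spanned 321 Mb against 160 Mb in the middles. They held 5601 shared peaks in replicate 1 and 5611 in replicate 2, against 2786 and 2790 in the middles. Shared sites were thus not denser in the middles than in the flanks. The flanks held 4553 and 492 unshared peaks against 2382 and 253, so the unshared surplus was smaller against them. Unshared middle peaks were mostly weak. In replicate 1 they had a median fold enrichment of 3.47 against 6.69 for shared middle peaks, and in replicate 2 one of 4.18 against 6.83. Of the 2382 unshared middle peaks of replicate 1, 89.7% fell in the 5 weakest classes and 4 reached a fold enrichment of 10, and of the 253 of replicate 2, 98.0% fell there and 0 reached 10. Among the unshared peaks of the rest, 85.7% in replicate 1 and 98.6% in replicate 2 fell in those classes, and 15 and 1 reached 10. The nearest summit of the other list was a median of 17.6 kb away in replicate 1 and 9.73 kb in replicate 2.

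A few unshared peaks of replicate 1 were strong all the same, whereas none of replicate 2 reached a fold enrichment of 10. In replicate 1 the strongest lay on chromosome 6 from 24654660 to 24654898, with a fold enrichment of 11.9 and the nearest replicate 2 summit 8193 bp away. The next lay on chromosome 10 from 33398316 to 33398570, with 11.3 and the nearest replicate 2 summit 150254 bp away. In replicate 2 the strongest lay on chromosome 11 from 34746935 to 34747087, with 7.89, and on chromosome 3 from 30538870 to 30539022, with 7.51, where a replicate 1 summit was 656 bp away.

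The 2786 overlapping pairs of the middles had similar strength in both libraries. None had its summits on opposite sides of a bound. Their summits lay a median of 10 bp apart, and 96.3% were within 50 bp. Across pairs, log2 fold enrichment had a Pearson correlation of 0.828 and fold enrichment a Spearman correlation of 0.825, against 0.819 and 0.809 in the rest. The paired values are not independent, because the log2 local backgrounds of the 2 libraries correlated at 0.968 over the same middle pairs, while the log2 pileups correlated at 0.857. Fold enrichment was higher in replicate 2 in 61.3% of the middle pairs, with a median log2 ratio of 0.10 ± 0.38 (SD over pairs).

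The strongest middle pair lay on chromosome 4 from 28467844 to 28468372, and its fold enrichments in replicates 1 and 2 were 22.7 and 23.2. It ranked 5 among all 13503 pairs by the smaller of its values, and was the only middle pair among the top 10. The second lay on chromosome 5 from 33993137 to 33993438, with 20.8 and 22.9. Chromosome 5 held 2 more of the 10 strongest middle pairs, with 23.1 and 19.5 at 31955176 to 31955437, and 18.2 and 18.5 at 35586576 to 35586890. On chromosome 3, the pair at 35431084 to 35431361 had 19.6 and 19.9, and the pair at 31366621 to 31366893 had 18.9 and 24.0. The latter lay inside the densest bin of the middles.

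The remaining 4 of the 10 lay on separate chromosomes. The pair on chromosome 10 (30718134 to 30718411) had 19.5 and 21.0, and the pair on chromosome 1 (46888896 to 46889289) had 22.5 and 18.7. The pair on chromosome 8 (37153060 to 37153326) had 18.4 and 18.8. The pair on chromosome 2 (22110574 to 22110921) had 18.6 and 18.3, close to the lower bound of the middle at 40.1% of the extent. The median middle pair, for comparison, was on chromosome 7 from 29331109 to 29331341, with 6.16 and 6.05. The smaller value of a pair reached 10 in 409 middle pairs, or 14.7%, the same share as in the rest.

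These strong shared sites amounted to 2.55 per Mb in the middles (exact Poisson 95% interval 2.31 to 2.81) and 2.45 in the rest (2.33 to 2.58), a ratio of 1.04. They were denser in the middle on 7 of 12 chromosomes. The range by chromosome was wide, from 1.21 per Mb in the middle of chromosome 12, where 17 of 215 pairs were strong, to 3.32 per Mb on chromosome 10, with 44 of 245. The chromosome 2 middle, with the fewest pairs per Mb at 13.4, had 25 strong pairs of 148, or 2.27 per Mb. The middles held 21 of the 100 strongest pairs and 198 of the 1000 strongest, beside 20.6% of all pairs.

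Neighbouring summits were slightly closer together in the middles. The median distance to the next summit was 19.3 kb in the middles and 20.6 kb in the rest of replicate 1, and 32.8 and 34.8 kb in replicate 2. This is not separate from the higher density, since more peaks per Mb give shorter distances. The median distance was 0.625 of the mean distance in the middles and 0.612 in the rest of replicate 1, and 0.624 and 0.630 in replicate 2. The next summit lay within 10 kb for 32.1% of middle distances against 30.5% in replicate 1, a difference of 1.61 points (Newcombe 95% interval 0.191 to 3.06). In replicate 2 it was 21.6% against 21.2%, a difference of 0.438 points (-1.18 to 2.11). Both intervals take each distance as an independent draw, cover counting error only and are not read as a test. Against the flanks, which had 32.1% and 22.4%, the middles were not more closely spaced. Distances over 100 kb made up 4.73% in the middles against 5.95% in replicate 1, and 14.8% against 16.4% in replicate 2.

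At the shortest range there was no common direction. Distances of at most 1 kb numbered 163 in the middles of replicate 1, or 3.16% against 3.00% in the rest, and 51 in replicate 2, or 1.68% against 2.07%. Peaks with a neighbour within 1 kb had lower median fold enrichments and lower shares of shared peaks than the others, in the middles as in the rest. In the middles of replicate 1, 321 such peaks had a median fold enrichment of 4.25, against 4.57 for the other middle peaks, and 43.6% of them were shared, against 54.6%. In the middles of replicate 2, 102 such peaks had 6.08 against 6.57, and 88.2% were shared, against 91.8%. In the rest the medians were 4.68 against 4.81 and 6.21 against 6.65, with 53.4% against 56.6% and 85.9% against 93.1% shared.

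Tight clusters of shared sites were few in the middles, and no such count is given for the rest of the chromosomes, so no comparison is made. Runs of 4 neighbouring shared middle peaks spanned a median of 143 kb, and 5 of 2750 runs fitted within 10 kb. The runs overlap, since a peak can belong to several of them, so the 5 are not necessarily separate clusters. The tightest lay on chromosome 9, with summits from 32325056 to 32329089 over 4.03 kb. Its replicate 1 fold enrichments were 4.00, 3.36, 4.89 and 4.49, and those of replicate 2 were 4.72, 4.80, 4.86 and 5.29. All 4 replicate 2 values lay below the middle median of 6.56, and those of replicate 1 lay on both sides of its median of 4.56. The next, on chromosome 3 from 34702200 to 34710263 over 8.06 kb, had 6.08, 10.7, 12.1 and 7.31 in replicate 1 and 5.20, 6.39, 5.98 and 4.93 in replicate 2. The last, on chromosome 12 from 30546058 to 30555199 over 9.14 kb, had its highest values at the second site, with 9.46 and 9.70 in the 2 libraries.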

How the data were processed

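The authors called peaks in each HSFA1a-Halo-tag library separately at a q-value of 0.05 and deposited one narrowPeak list per library. The submitters' processing notes name Trimmomatic 0.38, Bowtie2 2.3.5, SAMtools 1.9 and MACS2 2.2.7.1, and coordinates are on the M82 V1.0 assembly, counted from 1. The control and the treatment of duplicates in the DAP-seq peak calls are not given in the sources used here. The deposited fold enrichment is a ratio, the pileup at the summit over its local background, and the deposited significance is the −log10 of the p-value and q-value. The lists carry no read totals, so pileup and background were solved from the MACS2 formulas (a pseudocount of 1 in the ratio, a Poisson upper tail for the p-value). A factor of 0.981 on the pileup solved 99.9% of replicate 1 summits, and whole pileups solved 100% in replicate 2, which had lower pileups and a lower background and so the larger counting error.

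Values were computed with numpy 2.4.6, pandas 2.3.3 and scipy 1.17.1 under Python 3.11.15, and plotted with matplotlib 3.10.9. Distances between summits were taken within one section of a chromosome. Bins of 1 Mb were counted from the first base and kept where they lay wholly in a section. Intervals cover the counting error of peaks or distances only and take these as independent. PCR reads without molecular identifiers are also not independent molecules. No test was made: peaks are not replicates, and both libraries belong to 1 group. The counting steps and the solver were tested on simulated data.

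The named regions were the 10 overlapping middle pairs highest by their smaller fold enrichment and the median pair, the 2 strongest unshared peaks and the widest peak per library, the 5 densest and 5 emptiest bins, the 3 longest peak-free stretches and the 3 tightest runs of 4 shared peaks. The members and these lists were chosen with earlier results of these data known. Alternatives were other q-value and fold enrichment thresholds, other bounds, summit or centre, other overlap rules, equal lists, other bins and distances, and each library alone. Genes and heat shock elements at the summits were not analysed here, because they need sequence and annotation of the same assembly.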

Additional observations from a re-analysis of the deposited data

How the results depend on the processing

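Of 87 values under alternatives for 10 results, 71 stayed within the spread between libraries, the counting interval or 1.5 times the count, 13 moved further and 3 changed sign. Among the 71 were 12 values with 1 library left out. With 2 libraries, such a value lies within their spread by construction unless its sign changes. The log2 density ratio of middle to rest, 0.10, was 0.0495 among peaks of fold enrichment 4 or more, 0.17 with bounds of 45% and 55%, 0.13 with 35% and 65%, 0.0108 against the flanks and 0.19 against the ends. It was 0.13 without chromosome 2, an alternative chosen after seeing the data. A fold enrichment of at least 4 left 3115 middle peaks in replicate 1. The log2 ratio of medians, -0.05, was -0.13 for −log10 q. With lists of equal length, the difference in sharing was 0.562 points in replicate 1, the reverse of the main direction, and -2.69 in replicate 2. The difference in close spacing, 1.03 points, was -0.116 within 1 kb, -0.365 against the flanks and 2.52 against the ends. The densest bin reached 51.0 peaks per Mb in 0.5 Mb bins. The emptiest had 0 in 0.5 Mb bins, 7.25 in 2 Mb bins and 2.00 in bins started 0.5 Mb later. The cause of these changes was not tested. With each library alone, values ran from 0.07 to 0.12 for the log2 density ratio, -0.08 to -0.01 for the log2 fold enrichment ratio, -4 to 0 bp for width, 0.438 to 1.61 points for close spacing, 38 to 48 for the densest bin and 3 to 5 for the emptiest. The mean over both libraries kept its direction for density and fold enrichment under the alternatives run, but the log2 density ratio against the flanks was -0.004 in replicate 2. No paired analysis was possible because only 1 of the groups was analysed here, and the results come from no test.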
